A study of Mus musculus with 4 samples.

Results

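Transcripts of the chaperone genes were measured in mouse pachytene spermatocytes with and without BMH21. The genes were chosen by name alone: the Hsp genes, the Dnaja, Dnajb and Dnajc genes, Cct2 to Cct8, Bag1 to Bag6, Tcp1, Cryab and the heat shock factor genes Hsf1, Hsf2 and Hsf5, without Hspa5, Hsp90b1, Dnajb9 and Dnajc3, which belong to the unfolded protein response of the endoplasmic reticulum. The rule found 87 of the 15733 protein-coding genes in the table, all on autosomes, and 84 of them had enough counts to be tested. Hspa1b and Cryab were among those too low for a test, and Hsf3 was not analysed here. BMH21 is a DNA-intercalating compound used to block RNA polymerase I, which makes ribosomal RNA. Single-cell suspensions of mouse testis were held ex vivo for 12 h, in 2.5 µM BMH21 or in DMSO alone (mock), and a cell sorter then collected pachytene cells from both by their Hoechst staining. Each condition had 2 RNA-seq libraries that the labels call biological replicates. The labels give no strain, genotype or age.

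Chaperones bind unfolded or partly folded proteins and release them in cycles that are mostly driven by ATP. HSP70 proteins receive their substrates from J-domain proteins (the DNAJ families), which stimulate the HSP70 ATPase, and give up ADP with the help of nucleotide exchange factors such as the BAG and HSP110 proteins. HSP90 acts later, on kinases, receptors and other clients that are nearly folded, and the ring-shaped chaperonin CCT (TRiC) encloses actin, tubulin and other proteins while they fold. Heat shock factor 1 (HSF1) switches on many of these genes when unfolded proteins accumulate. Male germ cells carry their own versions of several chaperones, among them HSPA2, an HSP70 that is needed for meiosis, and abundant HSP90 alpha.

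The libraries held between 30964370 and 41548269 counts over the listed genes. Replicates of a group differed by more than counting noise, with a chi-square per degree of freedom of 3.23 in mock and 3.78 in BMH21, so each library counted as its own sample. The p-values measure the spread between these samples only. Transcripts of the 10 pachytene markers summed to 8063 and 8240 CPM (counts scaled to a common library total) in the mock libraries, beside 8328 and 8510 in the BMH21 libraries. Ldhc alone gave 4297 and 4453 CPM of these sums in mock and 4535 and 4685 in BMH21. Of the 10 markers, 4 were called higher: Sycp3 (log2 fold change 0.46), Sycp1 (0.27), Ldhc (0.08) and Adam2 (0.07). The 2 called lower were Piwil1 (-0.16) and Ccna1 (-0.15). A shift of stage within the sorted cells was not tested. Markers of somatic cells were low in every library. The listed Sertoli markers (5 of 9) summed to between 4.54 and 6.03 CPM, the macrophage markers (4 of 6) to between 4.86 and 6.91, the endothelial markers (4 of 4) to between 2.85 and 4.83, and the peritubular myoid markers (3 of 4) to between 0.362 and 1.05. The Leydig markers (4 of 6) summed to 9.13 and 9.60 CPM in mock and to 6.55 and 7.29 in BMH21, and 1 of them, Star, was called lower (log2 fold change -0.50 ± 0.15, adjusted p = 0.00785). None of the listed somatic markers was at 0 in both libraries of a group. Spermatogonial markers (7 of 8) summed to between 18.3 and 20.7 CPM in mock and between 15.2 and 17.1 in BMH21, and 2 of them, Kit and Zbtb16, were called lower. The leptotene and zygotene markers (6 of 6) summed to 212 and 211 CPM in mock and 198 and 203 in BMH21, with Spo11 and Meiob called lower. Most of these sums came from Spo11 (117 and 115 CPM in mock, 106 and 102 in BMH21) and Tex101. Tex101 was at 89 and 88.1 CPM in mock and at 86.4 and 93.7 in BMH21. The other genes of this set had means of 3.49 CPM or less. The round spermatid markers (8 of 8) summed to 222 and 225 in mock and 234.1 and 233 in BMH21. The part of these other stages and of the Leydig cells in the results was not tested. In sorted cells, fewer cells of a type and less RNA per cell cannot be told apart.

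The chaperone genes together took the same share of the transcriptome in both groups within the spread of the libraries. They made up 2.24% and 2.23% of all counts in the mock libraries and 2.24% and 2.23% in the BMH21 libraries (2.234% ± 0.00403 and 2.236% ± 0.00346, SD, n = 2 each). The 2 groups overlapped in this share (exact permutation test, two-sided p = 0.667, where the smallest possible is 0.333). Single genes did change. Of the 84 tested, 23 (27.4%) rose and 8 (9.52%) fell by edgeR's quasi-likelihood test at a Benjamini-Hochberg adjusted p under 0.05, beside 16.5% higher and 12.5% lower among all 13793 genes tested. Above a mean level of 10 CPM, 20 of 67 chaperone genes (29.9%) rose and 8 (11.9%) fell, beside 22.0% and 17.2% of 7560 genes. The libraries of the 2 groups did not overlap for 59 of the 84, beside 60.9% of all genes tested, so a lack of overlap alone was common. The changes were small: the median size of a called log2 fold change was 0.19, beside 0.34 over all called genes, and 2 chaperone genes, Dnajc25 and Dnajc17, changed at least 2-fold. The median log2 fold change was 0.04 over the 84 genes and 0.00 over all genes tested.

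More of the rises than of the falls of chaperone genes held under other analyses, and the falls were weaker calls than the rises that held. With upper quartile scaling, which moved the median of all genes to -0.05 on the log2 scale, 17 chaperone genes were called higher and 14 lower, beside 13.1% higher and 18.0% lower among all genes. The calls of 13 of the 23 higher genes held in all 10 alternative analyses: Hsp90ab1, Hspa13, Cct2, Cct8, Dnajc10, Hspa8, Hspa9, Dnajc25, Dnajc16, Dnajc1, Dnaja2, Dnajc21 and Dnajc17. Of the 8 lower calls, 0 held in all of them. These 8 had edgeR adjusted p-values of 0.00629 or more, against 0.00048 or less for the 13. The share of calls that held in all alternatives was not computed over all genes. Where 1 library was left out, fewer chaperone genes were called lower, and so were fewer of all genes. Higher calls of chaperone genes then went both ways, while those of all genes became fewer. In DESeq2 2 chaperone genes and 1184 of all genes were called lower, against 8 and 1731 in the main fit. The plot of each called gene by library shows how far the replicates lay apart.

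**Figure D1:**
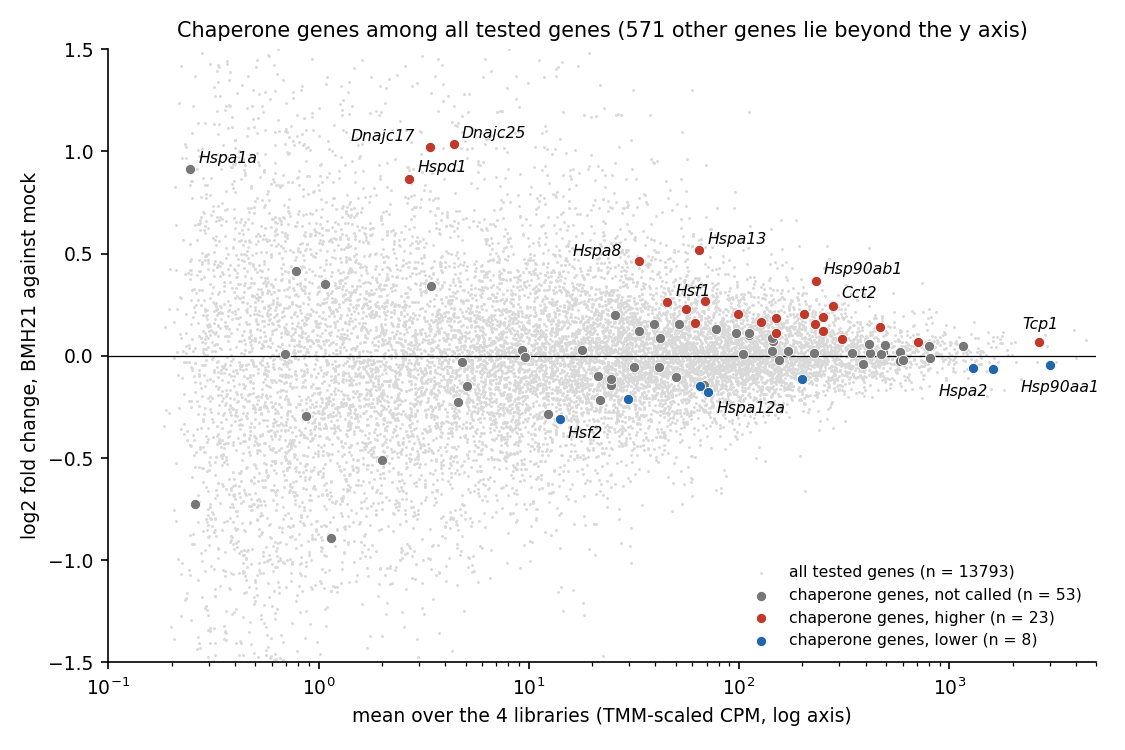
Log2 fold change of BMH21 against mock (y axis) against the mean level over the 4 libraries in TMM-scaled CPM (x axis, log scale), for all tested genes and, marked by their call, the chaperone genes. Most chaperone genes lie close to 0, and the largest changes among the called ones are those of the weakly expressed Dnajc25 and Dnajc17, at 1.04 and 1.02.

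**Figure D2:**
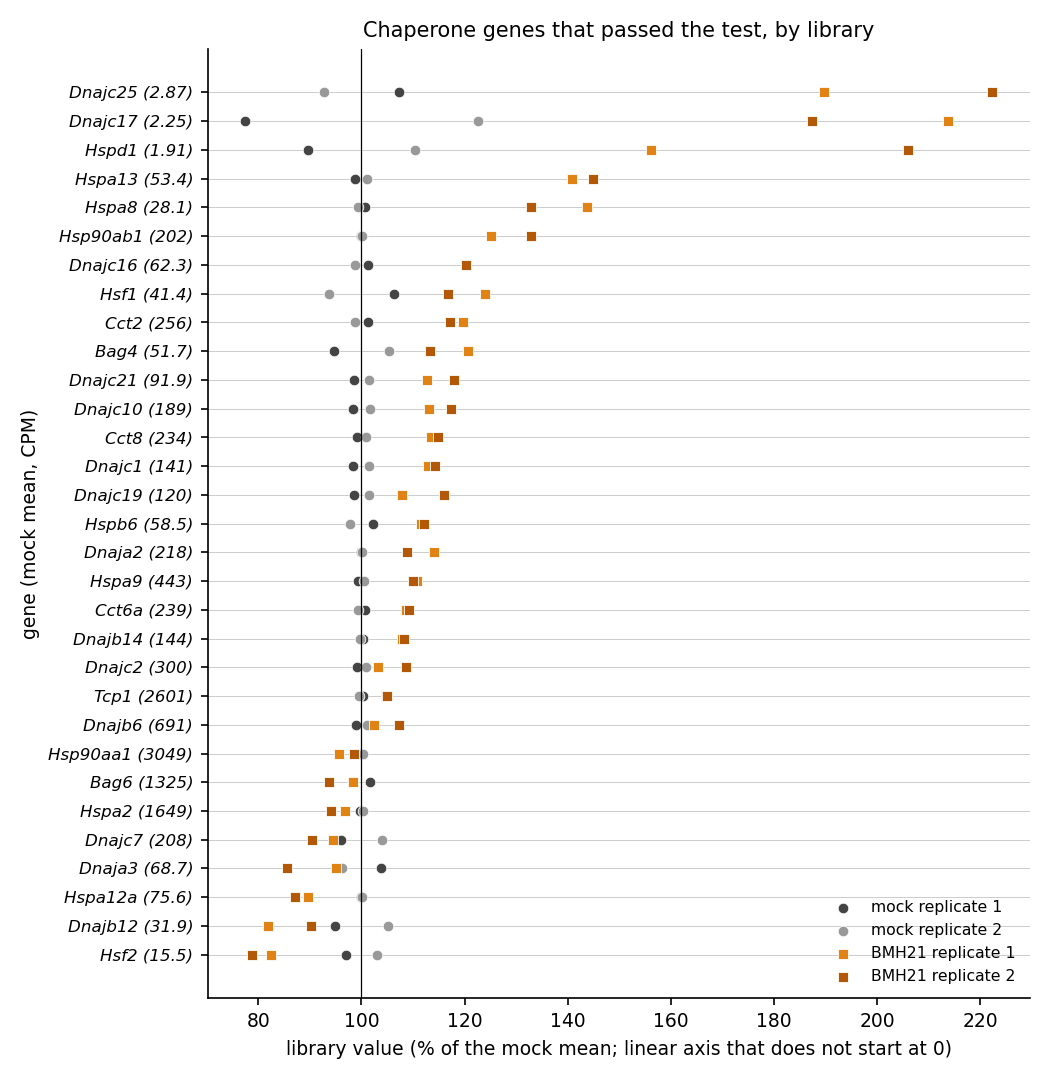
Level in each library as a percentage of the mock mean (x axis, which does not start at 0) for the 31 chaperone genes that passed the test, with the mock mean in CPM beside each name. The 2 BMH21 libraries lie to the right of both mock libraries for the 23 higher genes, and to the left of both for the 8 lower genes.

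HSP90 is made from a pair of genes whose transcripts were called in opposite directions. Hsp90ab1 encodes HSP90 beta, the form that most somatic cells express at all times (chromosome 17, 45567775 to 45573271, GRCm38). Its level was 202 and 202 CPM in the mock libraries and 252 and 268 CPM in the BMH21 libraries. Both BMH21 libraries lay above both mock libraries, and the transcript rose 1.29-fold (log2 fold change 0.37 ± 0.03 SE, edgeR adjusted p = 7.96e-15). Hsp90aa1 encodes HSP90 alpha, the heat-inducible form that male germ cells express without heat (chromosome 12, 110690605 to 110702728). It was the strongest chaperone gene, at 3043 and 3056 CPM in mock and 2915 and 3003 CPM in BMH21. Its call as lower was marginal (log2 fold change -0.04 ± 0.02, adjusted p = 0.0498) and was lost without mock replicate 1 (-0.04), without mock replicate 2 (-0.04), without BMH21 replicate 1 (-0.02), in DESeq2 (-0.04) and with no filter (-0.04). Transcripts of other genes match 68.7% of the Hsp90aa1 transcript at 95% identity or more, so reads may be split among them.

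The HSP70 genes showed the same arrangement in the counts, with a high germ cell gene and a low ubiquitous one. Hspa2, the germ cell HSP70 (chromosome 12, 76404176 to 76406938), stood at 1644 and 1654 CPM in mock and at 1597 and 1553 CPM in BMH21. The groups did not overlap, and the transcript fell slightly (log2 fold change -0.07 ± 0.02, adjusted p = 0.00629), a call that was lost without mock replicate 1 (-0.07) or without mock replicate 2 (-0.06). Hspa8 encodes HSC70, the constitutive HSP70 of most cells (chromosome 9, 40800984 to 40810087). Its level was 28.4 and 27.9 CPM in mock and 40.5 and 37.4 CPM in BMH21. Both treated libraries were higher, and the transcript rose 1.38-fold (log2 fold change 0.47 ± 0.08, adjusted p = 1.74e-06). Other genes, 5 processed pseudogenes and 1 noncoding RNA gene, each match at least 50% of the Hspa8 transcript at that identity and together 87.9% of it, so its count is uncertain. Per kilobase of exon, and with that limit, Hspa8 reached 6.54 CPM in mock against 624 CPM for Hspa2.

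The other HSP70 genes included the largest rise among the chaperone genes above 10 CPM. Hspa13 encodes a truncated HSP70-like protein of the endoplasmic reticulum (chromosome 16, 75745431 to 75767104) and has no overlapping or near-identical gene in the annotation. Its level was 52.8 and 54.0 CPM in mock and 75.2 and 77.3 CPM in BMH21. The transcript rose 1.43-fold, with no overlap between groups (log2 fold change 0.52 ± 0.06, adjusted p = 1.53e-11). Hspa12a, a distant member of the family, was at 75.6 and 75.7 CPM in mock and at 67.9 and 65.9 CPM in BMH21. It fell (log2 fold change -0.18 ± 0.05, adjusted p = 0.00806). The call was lost, at similar fold changes, without mock replicate 1 (-0.18), without mock replicate 2 (-0.18) and without BMH21 replicate 2 (-0.16). Hspa1l, expressed mainly in spermatids, was at 23.1 and 28.3 CPM in mock and 25.2 and 22.1 CPM in BMH21, with overlapping groups (adjusted p = 0.425). The stress-inducible Hspa1a and Hspa1b had few counts: Hspa1a had 11 and 2 counts in mock and 10 and 13 in BMH21, and Hspa1b had 14 and 4 in mock and 2 and 6 in BMH21. These genes are near-identical copies of each other, so that reads shared by both may not have been counted, and the log2 fold change of Hspa1a was 0.91 ± 0.83 (adjusted p = 0.467).

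The counts of each germ cell and ubiquitous gene were read as a share of the pair, a measure on which library scaling has no bearing. Other genes match 87.9% of the Hspa8 transcript and 68.7% of that of Hsp90aa1 at 95% identity or more, against 0.0% for Hspa2 and Hsp90ab1. The levels of these 2 shares are therefore uncertain as a measure of relative use. The 4 pairs were chosen with the values known. Hsp90ab1 took 6.21% of the HSP90 pair in each mock library (exact 95% binomial intervals 6.08 to 6.34 and 6.06 to 6.36) and 7.97% (7.81 to 8.14) and 8.20% (8.04 to 8.35) in the BMH21 libraries. The mean share was 1.30 times as large in BMH21. Hspa8 took 1.70% (1.60 to 1.79) and 1.66% (1.55 to 1.77) of its pair with Hspa2 in the mock libraries. In the BMH21 libraries it took 2.47% (2.34 to 2.60) and 2.35% (2.23 to 2.48), and the mean was 1.44 times as large. In both pairs the intervals of the treated and mock libraries did not overlap, although they cover counting error only. The shift was smaller for the CCT zeta subunit, where Cct6a took 36.9% and 36.8% of its pair with the germ cell gene Cct6b in mock and 37.7% and 38.1% in BMH21. For the HSP110 pair the groups overlapped, with Hspa4 at 29.9% and 29.6% of its pair with Hspa4l in mock and at 30.6% and 29.0% in BMH21. With 2 libraries against 2, the exact permutation test gave its smallest possible two-sided p of 0.333 for the first 3 pairs and 1 for the fourth.

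**Figure D3:**
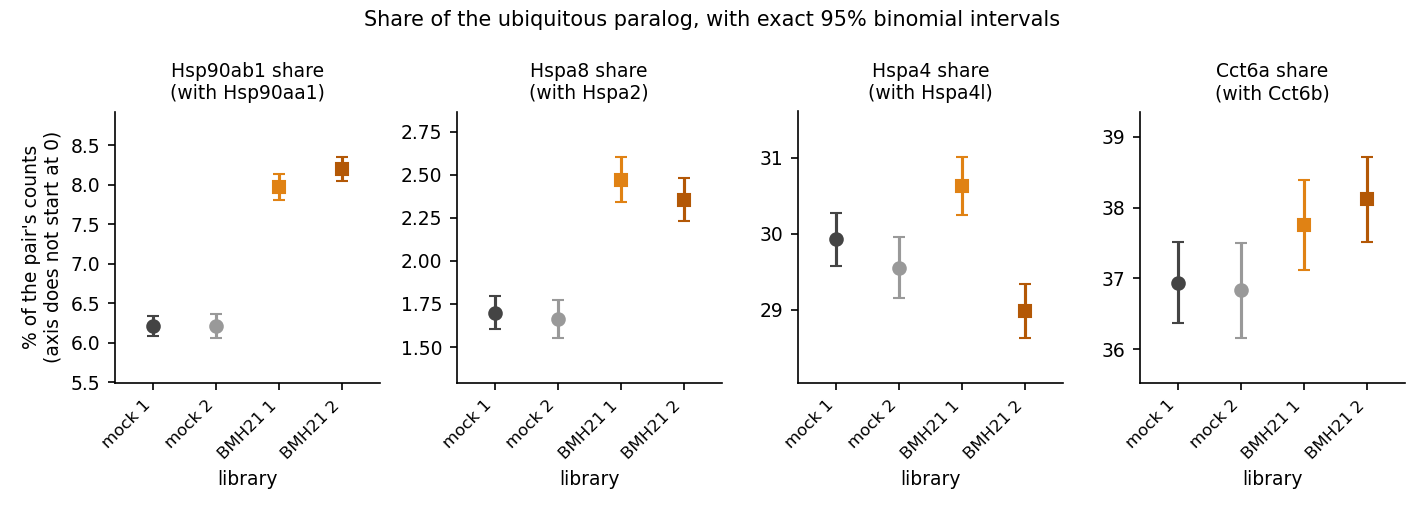
Share of the ubiquitous gene in the counts of each pair (y axis, percent, not starting at 0) in the 4 libraries (x axis), with exact 95% binomial intervals. Hsp90ab1 rises from 6.21% to a mean of 8.08% of its pair and Hspa8 from a mean of 1.68% to 2.41%, while the libraries of the 2 groups overlap for Hspa4. Near-identical copies of Hspa8 and Hsp90aa1 make the levels of the first 2 shares uncertain.

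HSP110 proteins are exchange factors for HSP70, and none of the 3 genes passed the test. Hspa4l, a testis-enriched HSP110, was at 1142 and 1152 CPM in mock and at 1161 and 1209 CPM in BMH21 (adjusted p = 0.0879). Hspa4 was at 488 and 483 CPM in mock and at 513 and 493 CPM in BMH21 (adjusted p = 0.138). Hsph1, the heat-inducible member, was at 94.7 and 91.7 CPM in mock and at 98.5 and 103 CPM in BMH21 (adjusted p = 0.0604). The treated libraries lay above the mock libraries for each of the 3 genes, a separation that 60.9% of all genes showed in one direction or the other, and the median log2 fold change was 0.05. Without BMH21 replicate 1, Hspa4l (0.07) and Hsph1 (0.15) were called higher, and without BMH21 replicate 2, Hspa4 (0.08).

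The CCT chaperonin had 4 rising genes and no falling one among the 9 genes of its subunits, with a median log2 fold change of 0.06. This is 44.4% of them, beside 22.0% higher among all genes above 10 CPM, and 2 of the 4 calls were kept with upper quartile scaling. Cct2, which encodes the beta subunit (chromosome 10, 117051001 to 117063814), was at 259 and 253 CPM in mock and at 306 and 299.5 CPM in BMH21. It rose 1.18-fold, the most of the subunit genes (log2 fold change 0.24 ± 0.03, adjusted p = 8.69e-10). Cct8, for the theta subunit (chromosome 16, 87483326 to 87495873), was at 232 and 236 CPM in mock and at 265 and 268 CPM in BMH21. It rose 1.14-fold (log2 fold change 0.19 ± 0.03, adjusted p = 9.70e-07), and both treated libraries again lay above both mock libraries. Cct6a, one of the genes for the zeta subunit, was at 240.3 and 237 CPM in mock and at 259 and 261 CPM in BMH21 (log2 fold change 0.12 ± 0.03, adjusted p = 0.00126). Tcp1, for the alpha subunit, was by far the strongest, at 2611 and 2590 CPM in mock and at 2726 and 2731 CPM in BMH21 (log2 fold change 0.07 ± 0.02, adjusted p = 0.00106).

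The calls of Cct6a and Tcp1 were lost under upper quartile scaling (0.08 and 0.02), and that of Tcp1 also without mock replicate 2 (0.06). Genes on the opposite strand cover 14.2% of the Tcp1 exons and 12.5% of the Cct6a exons, and the sources used here do not say whether counting used strand. The other subunit genes differed little. Cct7, for the eta subunit, was at 825 and 802 CPM in mock and at 809 and 809 CPM in BMH21, with a log2 fold change of -0.01 ± 0.02. Cct4, for the delta subunit, was at 793 and 775 CPM in mock and at 802 and 817 CPM in BMH21 (adjusted p = 0.125), and was called higher without BMH21 replicate 1 (0.06). The log2 fold changes of Cct3 (gamma) and Cct5 (epsilon) were 0.02 and 0.01, and that of Cct6b, the germ cell form of the zeta subunit, was 0.06 (adjusted p = 0.0898). The CCT complex contains each subunit in equal number, but its transcripts were unequal by this measure. Per kilobase of all annotated exons, Tcp1 reached 517 CPM in mock, against 75.7 CPM for Cct8. The genes of the zeta subunit reached 65.9 CPM (Cct6a) and 218 CPM (Cct6b). The CCT-like gene Cct8l1, not a known subunit, was at 2.34 and 2.37 CPM in mock and at 1.51 and 1.78 CPM in BMH21 (adjusted p = 0.217).

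**Figure D4:**
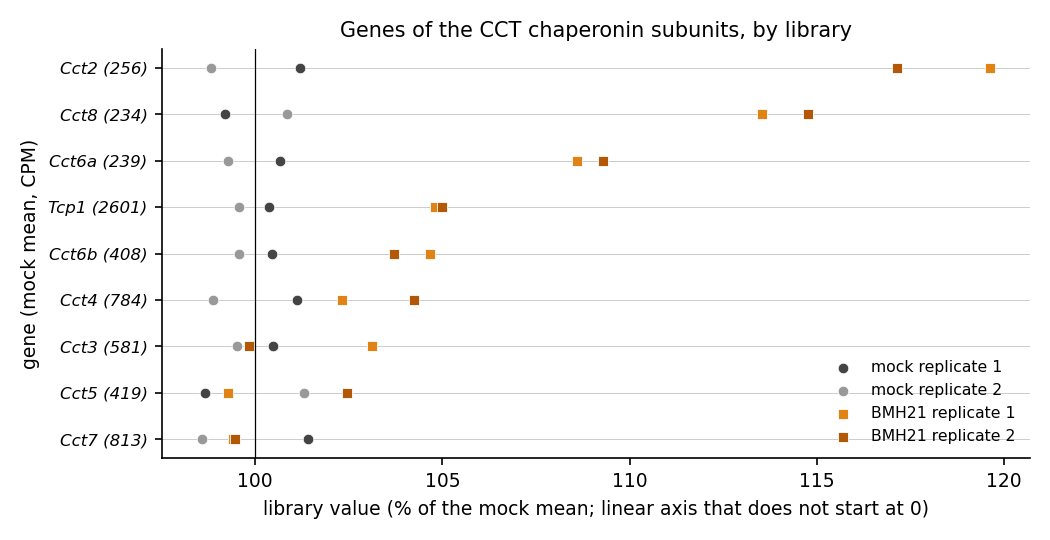
Level of each CCT subunit gene in the 4 libraries as a percentage of the mock mean (x axis, not starting at 0), with the mock mean in CPM beside each name. The treated libraries lie clearly to the right for Cct2 and Cct8, whose mock means are 256 and 234 CPM, and among the mock libraries for Cct7.

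Not all of these chaperones are cytosolic. By textbook knowledge, 4 of the 84 tested genes encode proteins that work inside the endoplasmic reticulum, and 8 encode proteins of the mitochondrion. These compartments were set with the values known, and both groups are small beside the 16.5% higher and 12.5% lower of all genes. Of the 4 in the endoplasmic reticulum, 3 rose and 0 fell, and each of these calls held in all alternatives. Beside Hspa13 these were Dnajc10 and Dnajc1. Dnajc10 encodes ERdj5, which reduces disulfide bonds of misfolded proteins, and was at 186 and 192 CPM in mock and at 213 and 222 CPM in BMH21 (log2 fold change 0.21 ± 0.03, adjusted p = 1.68e-06). Dnajc1 encodes ERdj1, a membrane protein with its J domain in the lumen, and was at 139 and 143 CPM in mock and at 159 and 161 CPM in BMH21 (log2 fold change 0.19 ± 0.04, adjusted p = 8.59e-05). The fourth, Dnajb11, which encodes the BiP partner ERdj3, was at 153 and 159 CPM in mock and at 156 and 152 CPM in BMH21 (adjusted p = 0.793).

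Of the 8 mitochondrial genes, 3 (37.5%) rose and 1 (12.5%) fell, the latter at the share of all genes tested. Hspa9, the mitochondrial HSP70 (mortalin), was at 440.1 and 445 CPM in mock and at 490.3 and 487 CPM in BMH21. It rose 1.10-fold with no overlap between groups (log2 fold change 0.14 ± 0.03, adjusted p = 6.97e-06). Dnajc19, a J protein of the import motor of the inner membrane, was at 119 and 122 CPM in mock and at 130.0 and 139.8 CPM in BMH21. Its rise (log2 fold change 0.17 ± 0.04, adjusted p = 0.00144) was not called without BMH21 replicate 2 (0.11). Dnaja3, the matrix J protein that works with mortalin, was at 71.2 and 66.1 CPM in mock and at 65.3 and 58.7 CPM in BMH21. Its lower call (log2 fold change -0.15 ± 0.06, adjusted p = 0.0452) was lost without mock replicate 1 (-0.09), without BMH21 replicate 2 (-0.08) and in DESeq2 (-0.15).

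Hspd1 and Hspe1 encode the chaperonin HSP60 and its lid HSP10, and stand head to head on chromosome 1. Hspd1 had 72 and 66 counts in mock and 99 and 146 in BMH21, which is 1.72 and 2.11 CPM against 2.99 and 3.94 CPM. It was called higher (log2 fold change 0.87 ± 0.26, adjusted p = 0.00785), but not without mock replicate 1 (0.72), without BMH21 replicate 2 (0.65) or in DESeq2 (0.86). Hspe1 had 33 and 17 counts in mock and 30 and 33 in BMH21, too few for a difference to be detectable (log2 fold change 0.42 ± 0.51, adjusted p = 0.618). Other genes match 71.1% of the Hspd1 transcript and 66.5% of the Hspe1 transcript at 95% identity or more, so both counts are uncertain.

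The binding motif of HSF1, the heat shock element, was searched because this factor controls many of these genes. The search took 3 alternating units in either phase, GAANNTTCNNGAA or TTCNNGAANNTTC, on both strands of the 250 bases before each gene's start, in the RefSeq promoters of GRCm38.p6. Of the chaperone genes, 69 had a promoter entry and 3 (4.35%) held the motif, against 139 of 27025 genes (0.514%). They were Hspd1, Hspe1 and Dnajb6. The first pair shares 1 stretch, chr1:55088053-55088082, read here on the strand of each gene. It lies 71 bases before the start of Hspe1 and 126 before 1 start of Hspd1. The promoter entry of another Hspd1 start held no match. The Dnajb6 stretch is chr5:29735844-29735872 on the plus strand. The overlapping matches are in capitals.
Hspe1: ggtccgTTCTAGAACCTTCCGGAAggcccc
Hspd1: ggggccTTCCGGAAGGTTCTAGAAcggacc
Dnajb6: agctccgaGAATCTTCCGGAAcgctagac

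Of these 3 genes, Hspd1 and Dnajb6 were called higher and Hspe1 was not. The heat-inducible genes Hspa1a, Hspa1b, Hsph1, Dnajb1, Hspb1 and Bag3 had an entry without these letters. A match is a description of the sequence and not a site shown to be bound. Reads of Dnajb6 may be split among other genes, which match 38.8% of its transcript at 95% identity or more. Dnajb6, whose protein holds back the aggregation of other proteins, was at 684 and 699 CPM in mock and at 708 and 742 CPM in BMH21. Its call (log2 fold change 0.07 ± 0.02, adjusted p = 0.0227) was lost with upper quartile scaling (0.02), in DESeq2 (0.07), and without mock replicate 1 (0.06) or 2 (0.08) or BMH21 replicate 2 (0.03).

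The J-domain families were the largest, with 43 genes tested, of which 11 (25.6%) rose and 3 (6.98%) fell (median log2 fold change 0.03). The share of rises was near the 22.0% of all genes above 10 CPM, and above the 16.5% of all genes tested. Most of the rises were in the DNAJC family, where 8 of 27 (29.6%) rose and 1 fell. Dnajc25 and Dnajc17 had the largest fold changes and few counts. Dnajc25, for a membrane-anchored J protein (chromosome 4, 58995062 to 59025573), had 129 and 83 counts in mock and 180 and 236 in BMH21. This is 3.08 and 2.66 CPM against 5.43 and 6.37 CPM, a 2.05-fold rise with no overlap between groups (log2 fold change 1.04 ± 0.20, adjusted p = 2.89e-05). Dnajc17, for a nuclear J protein linked to splicing, had 73 and 86 counts in mock and 159 and 156 in BMH21. It rose 2.03-fold (log2 fold change 1.02 ± 0.24, adjusted p = 0.00048), but a pseudogene matches 90.5% of its transcript at 95% identity or more.

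Of the better expressed DNAJC genes, Dnajc16, for a membrane J protein with a thioredoxin-like domain, was at 63.1 and 61.5 CPM in mock and at 75.0 and 75.0 CPM in BMH21. It rose 1.20-fold (log2 fold change 0.27 ± 0.05, adjusted p = 7.7e-05). A pair of DNAJC proteins acts at the ribosome. Dnajc21, whose protein takes part in the maturation of the large ribosomal subunit, was at 90.5 and 93.2 CPM in mock and at 104 and 108 CPM in BMH21. It rose 1.15-fold (log2 fold change 0.21 ± 0.05, adjusted p = 0.000295), and the groups did not overlap. Dnajc2, for the J protein of the ribosome-associated complex, was at 298 and 303 CPM in mock and at 309.6 and 326 CPM in BMH21. Its call (log2 fold change 0.08 ± 0.03, adjusted p = 0.0288) was lost with upper quartile scaling (0.04), in DESeq2 (0.08), and without mock replicate 1 (0.07) or 2 (0.09) or BMH21 replicate 2 (0.04). Its HSP70 partner Hspa14 was at 32.2 and 32.1 CPM in mock and at 35.4 and 34.7 CPM in BMH21 (adjusted p = 0.25).

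The 1 falling DNAJC gene was Dnajc7, for a protein that binds both HSP70 and HSP90. It was at 199.9 and 216 CPM in mock and at 197 and 188 CPM in BMH21 (log2 fold change -0.11 ± 0.04, adjusted p = 0.0125). The call was lost without mock replicate 2 (-0.06), without BMH21 replicate 2 (-0.08) and in DESeq2 (-0.11). Among the 4 DNAJA genes, Dnaja2, a general partner of cytosolic HSP70, rose from 218 and 218 CPM in mock to 249 and 237 CPM in BMH21 (log2 fold change 0.16 ± 0.03, adjusted p = 0.000106). Its close relative Dnaja1 was at 165 and 172 CPM in mock and at 171 and 172 CPM in BMH21 (adjusted p = 0.702).

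Among the 12 DNAJB genes, 2 (16.7%) rose and 1 (8.33%) fell, beside 16.5% and 12.5% of all genes. None of these calls held in all alternatives. Dnajb12 and Dnajb14 encode sister proteins of the endoplasmic reticulum membrane whose J domains face the cytosol, and they were called in opposite directions. Dnajb14 was at 144 and 144 CPM in mock and at 155 and 156 CPM in BMH21 (log2 fold change 0.11 ± 0.04, adjusted p = 0.0208). It was not called with upper quartile scaling (0.07), in DESeq2 (0.11), or without mock replicate 1 (0.12) or 2 (0.11) or BMH21 replicate 2 (0.11). Dnajb12 was at 30.3 and 33.6 CPM in mock and at 26.1 and 28.8 CPM in BMH21 (log2 fold change -0.21 ± 0.08, adjusted p = 0.047). It was not called without mock replicate 2 (-0.14), without BMH21 replicate 1 (-0.15), with no filter (-0.21) or in DESeq2 (-0.22). Dnajb1, the main heat-inducible J protein, was at 590.3 and 585 CPM in mock and at 584 and 571 CPM in BMH21 (adjusted p = 0.502), and was called lower with upper quartile scaling (-0.07). The germ cell gene Dnajb3 was at 341 and 341 CPM in mock and at 341 and 348 CPM in BMH21 (adjusted p = 0.749). Dnajb13, for a J protein of the sperm axoneme, was at 69.1 and 74.3 CPM in mock and at 67.5 and 62.5 CPM in BMH21 (log2 fold change -0.14 ± 0.06, adjusted p = 0.0517). It was called lower in 5 of the 10 alternatives: RLE scaling (-0.14), upper quartile scaling (-0.19), a minimum count of 50 (-0.15), and without mock replicate 1 (-0.19) or BMH21 replicate 1 (-0.20).

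**Figure D5:**
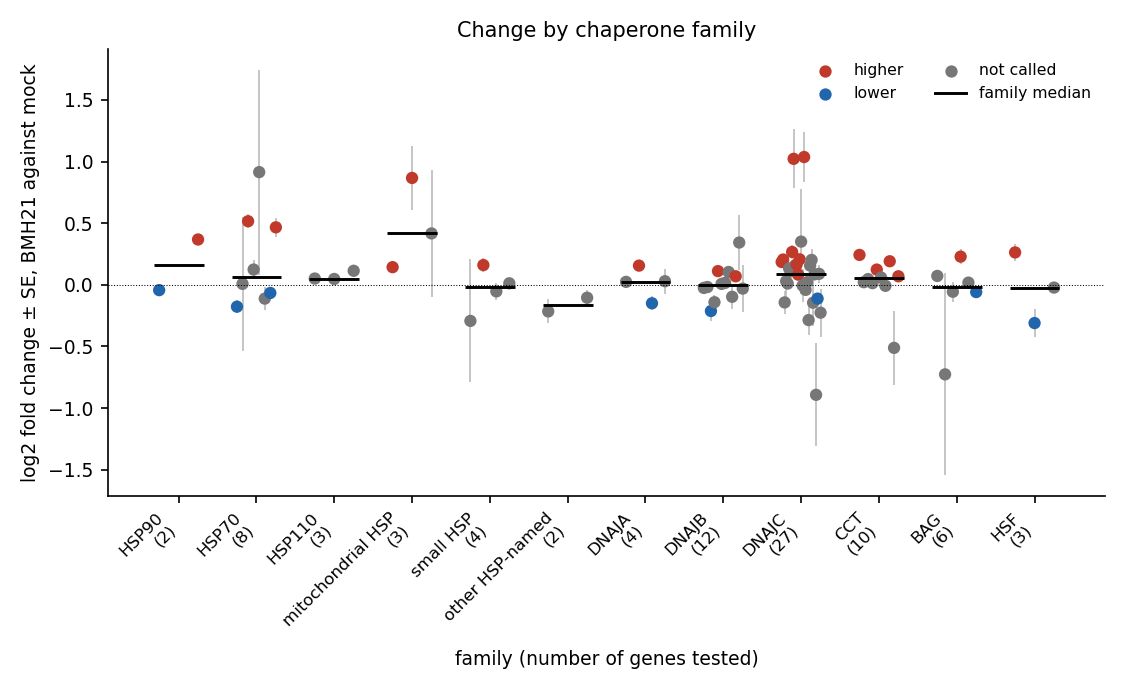
Log2 fold change of BMH21 against mock, with its SE (y axis), for each tested gene in each chaperone family (x axis, with the number of genes tested). The DNAJC family, with 27 genes, holds 8 rises and 1 fall, and the CCT family holds 4 rises and no fall. Among all genes tested 16.5% rose and 12.5% fell.

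The BAG proteins, which release ADP from HSP70 through their BAG domain, gave 1 rise and 1 fall among 6 genes. Each is 16.7% of them, beside 16.5% higher and 12.5% lower among all genes. Bag4 (SODD), a regulator of death receptors, was at 48.9 and 54.5 CPM in mock and at 62.3 and 58.6 CPM in BMH21 (log2 fold change 0.23 ± 0.06, adjusted p = 0.00311). The call was lost without mock replicate 1 (0.15) or BMH21 replicate 1 (0.18). Bag6, a large scaffold that guards newly made membrane proteins and is needed for spermatogenesis, was at 1347 and 1304 CPM in mock and at 1304 and 1242 CPM in BMH21. Its fall (log2 fold change -0.06 ± 0.02, adjusted p = 0.0301) was lost without mock replicate 1 (-0.03), without BMH21 replicate 2 (-0.03) and in DESeq2 (-0.06). Bag3, the heat-inducible member, was at 31.3 and 33.3 CPM in mock and at 31.5 and 30.6 CPM in BMH21 (adjusted p = 0.673), and Bag5 had a log2 fold change of 0.02 ± 0.03.

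Small heat shock proteins hold unfolded proteins without ATP. Of the 4 tested genes 1 (25.0%) rose and 0 fell, beside 16.5% and 12.5% of all genes. Hspb6 (HSP20) was at 59.8 and 57.2 CPM in mock and at 65.3 and 65.6 CPM in BMH21 (log2 fold change 0.16 ± 0.06, adjusted p = 0.0286). The call was lost with upper quartile scaling (0.11), in DESeq2 (0.16), and without mock replicate 2 (0.13), BMH21 replicate 1 (0.16) or BMH21 replicate 2 (0.15). Hspb9, the testis form and the strongest of the family, was at 229 and 225 CPM in mock and at 235 and 222 CPM in BMH21 (adjusted p = 0.841). The heat-inducible Hspb1 had 30 and 38 counts in mock and 34 and 20 in BMH21 (adjusted p = 0.734). Other genes match 72.6% of its transcript at 95% identity or more, so its count is uncertain.

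The heat shock factor genes moved apart. Hsf1, for the main activator of the heat shock response (chromosome 15, 76477422 to 76501913), was at 44.0 and 38.8 CPM in mock and at 51.3 and 48.3 CPM in BMH21. It rose 1.20-fold (log2 fold change 0.26 ± 0.07, adjusted p = 0.00212), a call that was lost without mock replicate 2 (0.18). Hsf2, for a factor with a role in spermatogenesis (chromosome 10, 57486385 to 57513135), was at 15.1 and 16.0 CPM in mock and at 12.8 and 12.2 CPM in BMH21. Its groups did not overlap, yet the lower call (log2 fold change -0.31 ± 0.11, adjusted p = 0.0329) was lost when any 1 library was left out (-0.35 to -0.27), in DESeq2 (-0.31) and with the replicate number as a block (-0.31). Hsf5, the germ cell factor and the strongest of the 3, was at 617 and 600.5 CPM in mock and at 599 and 600.2 CPM in BMH21 (adjusted p = 0.559), and was called lower with upper quartile scaling (-0.07).

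In 2 classes of chaperone genes set apart by their regulation, most genes were not called. A list of 10 genes of the heat shock response, which also holds the mostly constitutive Hspa8, was set against a testis list. Of these 10 (Hspa1a, Hspa1b, Hspa8, Hsph1, Dnajb1, Hspb1, Hsp90aa1, Bag3, Hspd1 and Hspe1), 9 were tested. Of the 9, 2 (22.2%) rose, Hspa8 and Hspd1, and 1 (11.1%), Hsp90aa1, fell. Both shares were near those of all genes, 16.5% and 12.5%. The median log2 fold change of the 9 was 0.11. It includes Hspa1a (0.91), which passed the count filter through its BMH21 libraries alone, while Hspa1b was not tested. Other genes match between 66.5% and 87.9% of the transcripts of Hspa1a, Hspa1b, Hspa8, Hspb1, Hsp90aa1, Hspd1 and Hspe1 at 95% identity or more. Of these, Hspa1a, Hspa1b, Hspb1, Hspd1 and Hspe1 had means of 2.69 CPM or less. The list is thus a weak readout of the heat shock response. Of 9 testis-enriched genes (Hspa2, Hspa1l, Hspa4l, Dnajb13, Dnajb3, Dnajc5b, Cct6b, Hsf5 and Hspb9), 0 rose and 1, Hspa2, fell, with a median of -0.02. With upper quartile scaling 3 of these 9 were called lower, beside 18.0% of all genes. The strongest transcripts per kilobase of exon in mock were those of Hsp90aa1 (776 CPM), Hspa2 (624), Tcp1 (517), Dnajb3 (324) and Hspb9 (312). The lengths are those of all annotated exons joined, for Cct7 6778 bases against 2441 for its longest coding transcript. The order depends on this choice.

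Of 57 genes listed as co-chaperones, cofactors or genes of HSF1 control and the stress response, 52 were tested, 13 (25.0%) rose and 4 (7.69%) fell, beside 16.5% and 12.5% of all genes. The median log2 fold change was 0.02, and 3 of the 13 rises were those of the 3 X-linked genes. With upper quartile scaling 9 were called higher and 10 lower, beside 13.1% higher and 18.0% lower among all genes. Among 20 regulators of HSP90, 1 (5%) rose and 3 (15%) fell, beside 16.5% and 12.5% of all genes. Chordc1, for a stress-inducible co-chaperone, was at 36.3 and 38.9 CPM in mock and at 48.8 and 47.9 CPM in BMH21 (log2 fold change 0.37 ± 0.07, adjusted p = 2.22e-05). Cdc37, the co-chaperone that brings kinases to HSP90, was at 78.4 and 82.7 CPM in mock and at 67.3 and 70.2 CPM in BMH21 (log2 fold change -0.23 ± 0.05, adjusted p = 0.000519). The related Cdc37l1 fell by 0.32 and Nudc by 0.26 on the log2 scale.

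Prefoldin and its relatives hand actin and tubulin to CCT, and 7 of 13 such genes (53.8%) rose and 0 fell, beside 16.5% and 12.5% of all genes (median log2 fold change 0.14). Both X-linked genes of the list were among the 7. The largest change was that of Vbp1, a prefoldin subunit on chromosome X, at 1.0 and 0.448 CPM in mock and 56.0 and 59.1 CPM in BMH21 (log2 fold change 6.23 ± 0.14, adjusted p = 1.36e-46). The prefoldin-like Uxt, also on chromosome X, had 2 and 2 counts in mock and 58 and 41 in BMH21. Uxt passed the count filter through its BMH21 libraries alone, so the size of its log2 fold change, 4.62 ± 0.73, is uncertain. It is counted among the 7 rises of this list and among those of all partner genes. Of the 5 autosomal genes that rose, Pdrg1, a prefoldin-like subunit, had a log2 fold change of 0.67 ± 0.14 and Pdcl2, a germ cell CCT cofactor of the phosducin family, of 0.14 ± 0.03. Among 11 tested genes of HSF1 control and of the wider stress response, 4 (36.4%) rose and 1 (9.09%) fell, beside 16.5% and 12.5% of all genes. Zfand2a, a heat- and arsenite-inducible gene, was at 22.5 and 21.5 CPM in mock and at 31.1 and 33.6 CPM in BMH21 (log2 fold change 0.56 ± 0.09, adjusted p = 2.76e-07). Sqstm1, for the autophagy receptor p62, had a log2 fold change of 0.34 ± 0.06, and the X-linked cold-inducible gene Rbm3 of 3.30 ± 0.33. Jun, a stress-responsive transcription factor gene, fell by 0.48 on the log2 scale. Among 8 partners of the mitochondrial chaperones, 1 (12.5%) rose and 0 fell, beside 16.5% and 12.5% of all genes. It was Clpx, for a subunit of the matrix protease (0.17 ± 0.04).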

How the data were processed

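The values used were raw counts of reads per protein-coding gene, deposited by the authors, with no scaling, in 1 table of genes with a total of at least 4 counts. Per the submitters' processing notes, fastp, STAR, SAMtools, featureCounts and DESeq2 were used with mm10, and, per the labels' protocols, the library kit was a stranded one for mRNA. Versions, the strand setting and the treatment of reads that map to several genes are not given in the sources used here. The authors' normalized values and fold changes were not used. Of the untested chaperone genes, 1 is not reported here.

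In R 4.3.3, edgeR 4.0.16 kept 13793 of 15733 genes by filterByExpr (minimum count 10), scaled them by TMM, which centres most genes near no change, and fitted the quasi-likelihood test by group. Calls had an adjusted p under 0.05 over all genes tested. CPM use TMM-scaled totals. The SE is the size of the log2 fold change divided by the square root of F. Levels per kilobase use the union exon length of GENCODE M21. Near-identical copies were found with BLAST 2.17.0. Positions are those of M21 on GRCm38, since the table's own positions matched it for 369 of 15670 genes although the chromosome matched for all. On simulated counts for 13793 genes, 25 of 50 genes changed 1.25-fold were recovered, and 40 of 50 changed 1.5-fold. Of those changed 2-fold 44 of 50 were recovered and of those changed 4-fold 50 of 50, with 5 false calls of 164 in all. Only 50 genes were changed at each fold, far fewer than were called in the data, so these rates may not carry over.

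The chaperone genes and all lists were chosen with earlier results of these data known. Named genes are the 12 called higher and 12 called lower with the smallest p (8 were lower), the 2 most abundant of each family, all CCT and heat shock factor genes, and the heat-inducible and testis-enriched lists. In the lists of partner genes, up to 4 called genes with the smallest p were taken. Bag4, Dnajb14, Dnajc17 and Dnajc19, the named uncalled genes outside these lists, the compartments and the gene pairs were chosen after their values were seen. Alternatives were RLE and upper quartile scaling, no filter, a minimum count of 50, DESeq2 1.42.0, a replicate block and leaving out each library.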

Additional observations from a re-analysis of the deposited data

How the results depend on the processing

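With 2 libraries a group, several small calls were lost when 1 library was left out, in fits that keep a single library in a group. Some fold changes barely moved in these fits, as for Hspa12a (-0.18 in the main fit, -0.20 to -0.16 in these). A lost call therefore does not show that it rested on the library left out. Genes with few counts, such as Hspd1 and Hspe1, had wide errors. The number of chaperone genes called lower, 8 as reported, was 14 with upper quartile scaling and 2 in DESeq2. Over all genes it was 2480 and 1184, against 1731 as reported. Both numbers became smaller when each library was left out in turn. The number of chaperone genes called higher, 23, was 17 with upper quartile scaling and 18 in DESeq2, and moved both ways with libraries left out. Over all genes it was 1805 and 1772, against 2282 as reported. The median log2 fold change of the chaperone genes, 0.04, was -0.0075 with upper quartile scaling, which moved the median of all genes alike, from 0.00 to -0.05. It was 0.0271 in DESeq2, and between 0.036 and 0.0559 with libraries left out. Partner genes called lower, 4 as reported, were 10 with upper quartile scaling, which called 18.0% of all genes lower, against 12.5% as reported. The cause was not tested. Replicate numbers did not pair the libraries (correlation of same-number deviations 0.00964 over 7560 genes): with a replicate block 23 chaperone genes were higher and 7 lower, and the call lost was that of Hsf2. Over 55 named chaperone genes and 10 alternatives, 473 of the 546 values that could be had stayed on the same side of the threshold, 59 lost the call and 14 gained one. No called gene changed direction, while 10 of 24 uncalled ones changed sign in at least 1 alternative.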

Other observations

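The chaperone genes not yet described, of which 4 were picked here with their values known, were all uncalled and spanned a wide range of levels. Hspbap1, for a protein that binds HSPB1, was at 22.5 and 24.5 CPM in mock and at 22.0 and 18.4 CPM in BMH21 (log2 fold change -0.22 ± 0.10, edgeR adjusted p = 0.089), and was called lower with upper quartile scaling (-0.26) and without BMH21 replicate 1 (-0.35). Dnajc5g, a cysteine string protein gene of the testis, was at 139.5 and 139 CPM in mock and at 147 and 148 CPM in BMH21 (log2 fold change 0.09 ± 0.04, adjusted p = 0.095). Dnajc30, for a J protein of the mitochondrial inner membrane, was at 14.0 and 13.2 CPM in mock and at 11 and 11.3 CPM in BMH21 (log2 fold change -0.29 ± 0.12, adjusted p = 0.0683). Dnajc6, for auxilin, which strips clathrin from vesicles with HSC70, had the lowest log2 fold change of all tested chaperone genes, -0.89 ± 0.42, from 66 and 44 counts in mock and 32 and 24 in BMH21 (adjusted p = 0.104).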
